A study of Mus musculus with 2 samples.

Results

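The genes described here serve heme breakdown and iron recycling. They are Hmox1, Blvra and Blvrb, which break down heme, Slc40a1 and Slc11a1, which move iron, Fth1 and Ftl1, which store it, and the regulators Spic, Bach1 and Nfe2l2. They were chosen by name, as the probes whose listed gene symbol was one of these, with the comparison of both fractions already known. All 10 genes had a probe, each exactly 1, among 19084 genes measured with 26423 probes. Naïve male NOD-SCID mice, 6 to 8 weeks of age, gave the spleen cells, which were sorted without culture or treatment into Z(+) cells, which bind the peptide Zfra, and Z(-) cells, which do not. The labels do not state the gate, and that it was binding of Zfra follows what the cells are called and how other Z cells of the study were sorted. All animals carried the scid mutation of Prkdc and so lacked mature T and B cells. Cells of what seem to be 8 spleens were used, as far as the design text can be read, and each fraction was 1 RNA sample, hybridised to 2 technical arrays that were deposited as 1 column. There was thus no replicate of the sort, no difference carries a test, and in RNA of a whole fraction fewer cells of a type and less RNA per cell cannot be told apart.

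Red pulp macrophages of the spleen take up aged red blood cells. Heme oxygenase 1 opens the heme ring and releases iron, carbon monoxide and biliverdin, and biliverdin reductases turn the last into bilirubin. The iron is kept in ferritin or leaves the cell through ferroportin. Heme drives the degradation of the repressor BACH1, which in mice frees transcription of Hmox1 and of Spic, the factor on which red pulp macrophages depend, while NRF2 activates Hmox1, the ferritin genes and Slc40a1.

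Hmox1 was lower in Z(+) cells than in Z(-) cells, and the 9 other genes had a higher intensity in Z(+). The intensity of Hmox1 was 4528 in Z(+) cells and 14348 in Z(-) cells, which is 3.17-fold lower, or -1.66 as the log2 difference of Z(+) minus Z(-). The other 9 genes lay between 1.04-fold and 1.69-fold higher, and the median of their log2 differences was 0.55. At 2-fold, 1 of 10 genes was called lower and 0 were called higher. Of all 19084 genes, 6.27% were at least 2-fold lower and 2.44% at least 2-fold higher, and 54.1% had a higher intensity in Z(+) by any amount. At 1.5-fold, 2 of the 10 genes were higher and 1 was lower, against 7.89% and 13.5% of all genes. The same contrast served to choose the genes, so nothing is read from their counts against these shares. The log2 difference of Hmox1 lay 2.21 below the median of the other genes and 1.72 below that of Fth1, the nearest of them.

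**Figure D1:**
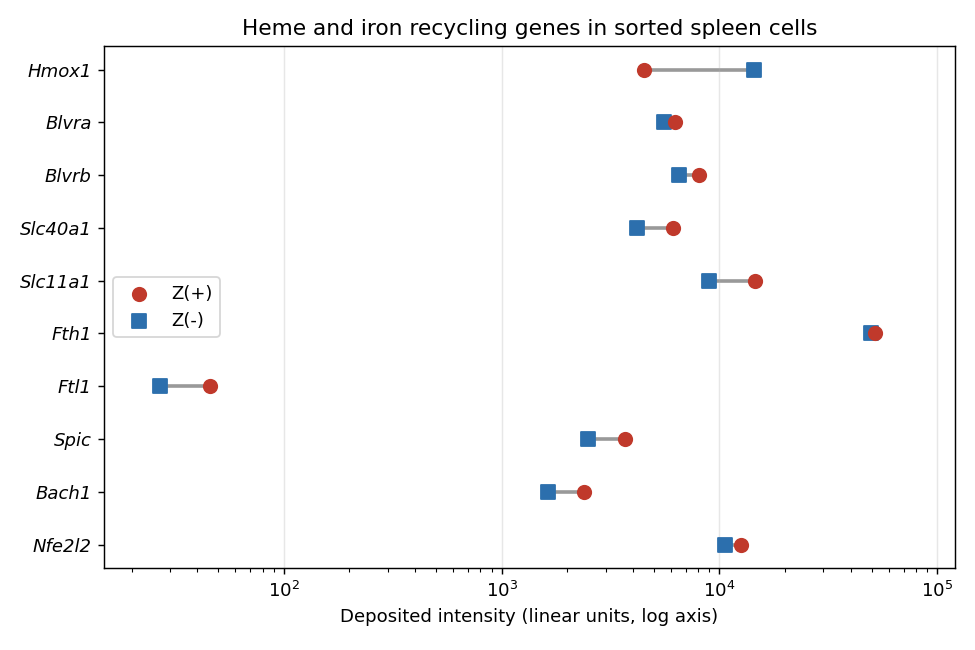
Deposited intensity of each gene (linear units on a log axis), with a circle for the Z(+) sample and a square for the Z(-) sample, 1 sample each. Hmox1 is at 4528 in Z(+) cells and 14348 in Z(-) cells, and in each of the other 9 rows the Z(+) circle lies to the right of the Z(-) square. Brightness also depends on the probe, so rows are not to be compared with each other.

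The technical spread was read from the deposited values themselves. Below an intensity of 2000, nearly all values could be split into whole-number intensities of the 2 technical arrays, each times a factor of its own. Where several splits were possible, only those with the arrays within 1.5-fold were kept, so larger disagreements there are not in the spread. Between 1000 and 2000, the median fold between the arrays was 1.03 in Z(+) and 1.03 in Z(-), and 95% of probes stayed under 1.11-fold in Z(+) and 1.10-fold in Z(-). This gives a technical SD of 0.05 for the log2 difference of such a probe, which covers hybridization and not the sort or the mice. Most of the genes here were brighter than 2000 and could not be split, so for them this is the spread of dimmer probes. The choice of probe matters more. Over 155 genes with exactly 2 probes, both at a mean log2 value of 10 or above, the log2 differences of the paired probes differed with an SD of 0.55, and 95% of pairs lay within 1.05 of each other. The log2 differences of the 9 genes other than Hmox1, from 0.06 to 0.76, lay within this 1.05. Ftl1 was dimmer than the probes of these pairs, and the 1.05 is a spread between 2 probes, not around 0. With 1 probe per gene, the differences could not be checked on a second probe.

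Within heme breakdown, the first step and the next ones went opposite ways. Hmox1 encodes the inducible heme oxygenase. Its difference was reached or exceeded downward by 2.36% of all genes. The share was 2.09%, or 199 of 9542, among genes no dimmer than the median gene. It was 1.16% of the 2242 genes no dimmer than Bach1, a limit chosen after the data were seen. Hmox1 was set apart from the other genes on this same contrast, so nothing is read from these shares. Blvra, the reductase of the main form of biliverdin, had an intensity of 6255 in Z(+) cells and 5540 in Z(-) cells, 1.13-fold higher. Blvrb, a biliverdin and flavin reductase, had 8085 in Z(+) cells and 6533 in Z(-) cells, 1.24-fold higher. The log2 differences of both reductases exceeded the technical SD of 0.05, which comes from dimmer probes. Neither exceeded the SD of 0.55 between paired probes, which is a spread between probes and not the error of 1 probe. Hmox2 encodes the constitutive heme oxygenase and had 3 probes that disagreed. Its brightest probe had 5205 in Z(+) cells and 7449 in Z(-) cells, 1.43-fold lower. The middle one, at 322 in Z(+) cells and 358 in Z(-) cells, was 1.11-fold lower, and the third was very dim in both.

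Both iron transporters were higher in Z(+). Slc40a1 encodes ferroportin, the exporter of iron from macrophages, and had an intensity of 6120 in Z(+) cells and 4187 in Z(-) cells, 1.46-fold higher. Slc11a1 encodes NRAMP1, which carries iron and other metal ions out of the phagosome. It had 14599 in Z(+) cells and 8981 in Z(-) cells, 1.63-fold higher, the largest difference upward of the 9 recycling genes brighter than the median gene. Hmox1 and Slc40a1, the enzyme that frees iron from heme and the exporter of that iron, thus parted by 2.21 on the log2 scale.

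Of the ferritin genes, the bright probe showed almost no difference and the dim one a larger one. Fth1, the heavy chain with ferroxidase activity, had 51603 in Z(+) cells and 49501 in Z(-) cells, 1.04-fold higher. These values are 78.7% and 75.5% of the scanner's limit of 65535, and differences between probes this bright can be compressed. Ftl1, the light chain, had 45.6 in Z(+) cells and 27.0 in Z(-) cells, 1.69-fold higher. Its Z(+) arrays read 41.6 and 49.6, and its Z(-) arrays 24.2 and 29.7. These did not overlap, but how many probes of this brightness do the same was not counted. The 4 pairings of an array of Z(+) with an array of Z(-) ranged from 1.40-fold to 2.05-fold. For probes with an intensity from 20 to 100, the technical SD of the log2 difference was 0.33, larger than the 0.05 of probes between 1000 and 2000. With a pseudocount of 50, the log2 difference of Ftl1 was 0.31 in place of 0.76. The probe of Ftl1 was dimmer than the median of all genes, 121. Ferritin genes have near-identical copies in the mouse genome, and the sequences of the probes were not analysed here, so which copies these values report is uncertain.

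The 3 regulators had higher intensities in Z(+). Spic, the transcription factor of red pulp macrophages, had 3690 in Z(+) cells and 2500 in Z(-) cells, 1.48-fold higher. Bach1, the repressor that heme releases, had 2397 in Z(+) cells and 1639 in Z(-) cells, 1.46-fold higher. The technical arrays of Bach1 gave 1577 and 1700 in Z(-), and its Z(+) value was too bright to be split. Nfe2l2, which encodes NRF2, had 12527 in Z(+) cells and 10566 in Z(-) cells, 1.19-fold higher. Spic and Bach1 had log2 differences of 0.56 and 0.55, close to the 0.55 of Slc40a1, and Nfe2l2 had 0.25. RNA measures neither the amount nor the activity of BACH1 and NRF2, which are controlled largely as proteins.

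**Figure D2:**
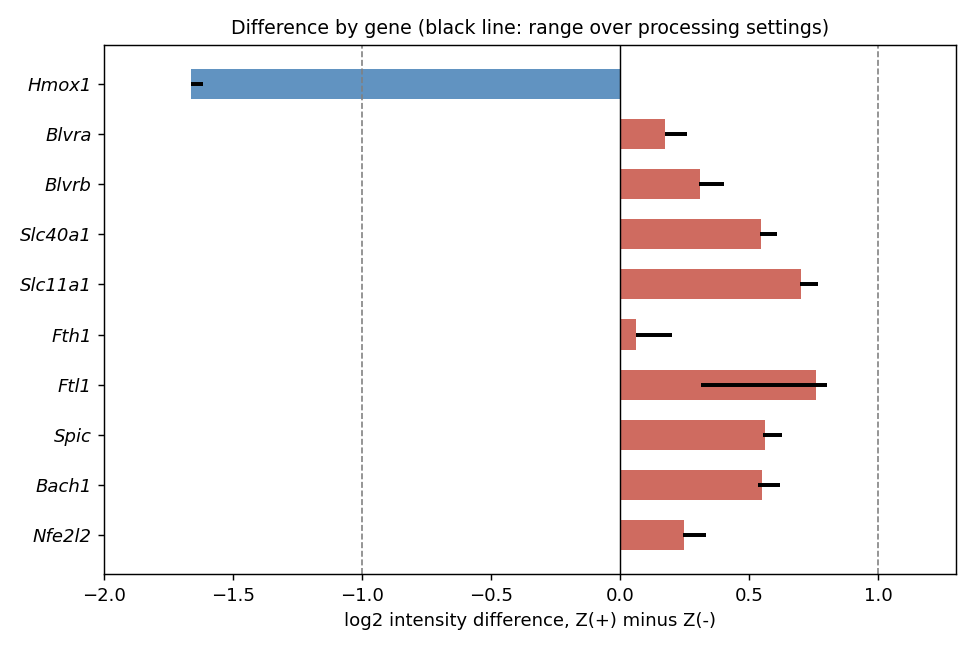
Difference of log2 intensity, Z(+) minus Z(-), for each gene as a bar, with the dashed lines at 2-fold. The black line spans the values over the processing settings, from -1.66 to -1.62 for Hmox1 and from 0.31 to 0.80 for Ftl1, and every line of the other 9 genes stays above 0.

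BACH1 and NRF2 compete, as partners of small MAF proteins, for antioxidant response elements, whose core is TGACNNNGC. This core was searched on both strands of the promoters that RefSeq gives for GRCm38.p6, from 250 bases before to 50 after the start, and 8 of the genes were matched: Slc11a1, Spic, Fth1, Ftl1, Blvra, Blvrb, Bach1 and Nfe2l2. Hmox1 and Slc40a1 had no promoter in this set, so they were not searched. For all genes, elements outside this stretch were not searched either. The core was found in 2 of the 8, against 14% of 27025 genes. Those stretches are shown because they held the only matches. All 8 genes searched had a higher intensity in Z(+), so the matches cannot be set against the direction of a difference. The stretches read 5′ to 3′ on the strand of the gene, with the match in capitals. The printed stretch of Nfe2l2 is chr2:75704875-75704913 on the minus strand, and its match starts 240 bases before the start of the gene. The printed stretch of Blvra is chr2:127070588-127070636 on the plus strand, and its match, which reads GCNNNGTCA because the core is on the opposite strand, starts 49 bases before the start.
Nfe2l2: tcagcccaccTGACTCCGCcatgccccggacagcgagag
Blvra: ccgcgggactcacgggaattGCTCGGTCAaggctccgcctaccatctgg
A match is a description of letters and no site of binding, and the expression values do not bear on its use.

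**Figure D3:**
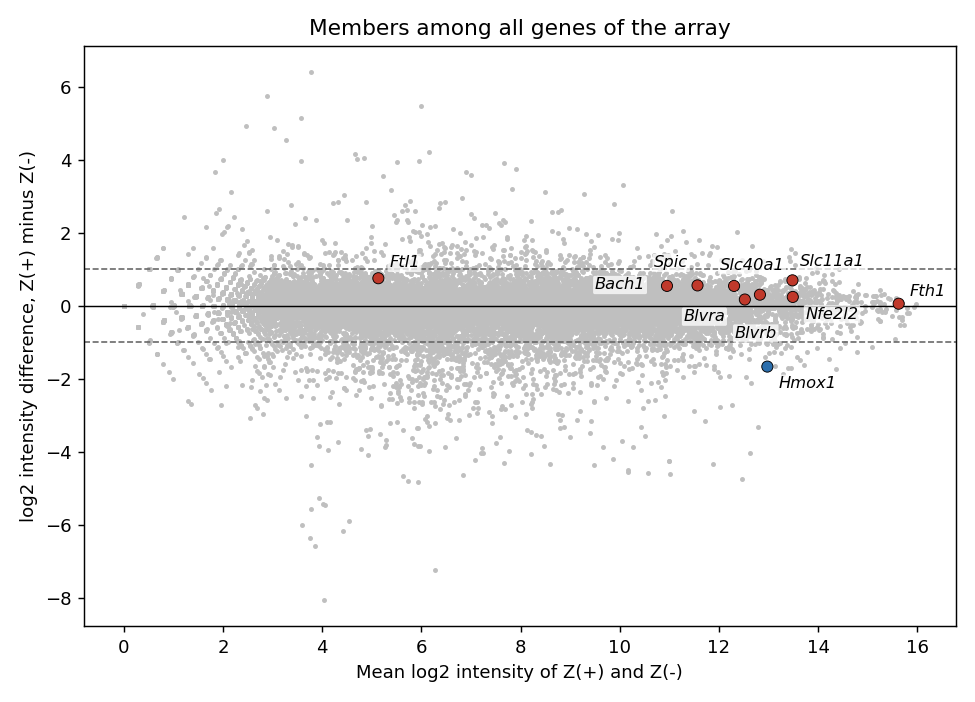
Mean log2 intensity of both samples against the log2 difference, Z(+) minus Z(-), for all 19084 genes in grey, with the 10 genes marked and the dashed lines at 2-fold. Hmox1, at -1.66, lies below the lower line, while the other 9 lie between 0 and the upper line.

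Other genes of heme and iron handling had few differences of 2-fold, at shares near those of all genes. Of 37 measured genes, 0 were at least 2-fold higher and 1 was at least 2-fold lower, where all genes had 2.44% and 6.27%, and the median of their log2 differences was 0.15, against 0.03 over all genes. The gene that was lower by 2-fold was Lcn2, a protein of neutrophil granules that binds iron carriers, at 23488 in Z(+) cells and 51123 in Z(-) cells. Genes of the uptake side lay on both sides of 0. Cd163, the receptor for hemoglobin bound to haptoglobin, was close to the median gene, 121, at 228 in Z(+) cells and 116 in Z(-) cells, 1.96-fold higher. Lrp1, which takes up heme bound to hemopexin, had 8525 in Z(+) cells and 5662 in Z(-) cells, 1.51-fold higher. Slc11a2, the iron transporter DMT1, was 1.53-fold higher. Carriers of heme itself were closer, with Slc48a1, which moves heme out of the phagolysosome, at 1858 in Z(+) cells and 1749 in Z(-) cells, and Flvcr1, an exporter of heme, at 1134 in Z(+) cells and 916 in Z(-) cells. Tfrc, the transferrin receptor, was 1.43-fold lower at 366 in Z(+) cells and 523 in Z(-) cells, and Abcg2, a transporter that exports porphyrins, was 1.67-fold lower.

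Further target genes of NRF2 and BACH1 had shares near those of all genes as well. Of 22 measured genes, 14 had a higher intensity in Z(+), where 54.1% of all genes did, 1 was at least 2-fold higher and 0 were at least 2-fold lower, where 2.44% and 6.27% of all genes were, and the median log2 difference was 0.27. Slc7a11, which imports cystine, was highest at 525 in Z(+) cells and 258 in Z(-) cells, 2.04-fold. Gsr, the glutathione reductase, was 1.57-fold higher, and so, by 1.55-fold and 1.44-fold, were Gclc, a subunit of the enzyme that makes the precursor of glutathione, and Txnrd1, the thioredoxin reductase. Gclm, the other subunit, had 256 in Z(+) cells and 208 in Z(-) cells. Nqo1, a quinone reductase, was dim at 39.6 in Z(+) cells and 25.0 in Z(-) cells. Pgd, an enzyme of the pentose phosphate pathway, was the lowest of the list at 6335 in Z(+) cells and 9468 in Z(-) cells, 1.49-fold lower. Hmox1 lay below the lowest member, whose log2 difference was -0.58.

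Hmox1 is also induced by cell stress. Of 15 acute stress genes, 14 were within 2-fold, 0 were at least 2-fold higher and 1 at least 2-fold lower. These shares are near the 2.44% and 6.27% of all genes, and the median log2 difference of the list was -0.06. The lower gene was Hspb1, which encodes a small heat shock protein, at 850 in Z(+) cells and 2014 in Z(-) cells. Ier3 and Ddit3, an early response gene and the factor CHOP, were 1.54-fold and 1.48-fold lower, and Atf4 1.27-fold lower. Hspa1b, which encodes heat shock protein HSP70, was 1.33-fold higher, at 23542 in Z(+) cells and 17677 in Z(-) cells.

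Genes of red pulp macrophages, the cells in which this pathway is best known, were higher in Z(+). All 19 measured genes had a higher intensity, where 54.1% of all genes did. By 2-fold or more, 10 of the 19 were higher, where 2.44% of all genes were. Like the other lists, this one was written with earlier results of these data known. Nothing is therefore read from its counts against these shares. The median of their log2 differences was 1.35, and their summed intensity was 155788 in Z(+) cells and 103267 in Z(-) cells. No dimmer than the median gene were 17 of the 19. The brighter probe of Axl had a log2 difference of -0.12 and the other 1.47, and those of Treml4 had 0.79 and 2.52. Mertk, a receptor for apoptotic cells, was 5.06-fold higher. Timd4, another one, was 4.65-fold higher and dim in Z(-), at 342 in Z(+) cells and 73.5 in Z(-) cells. C1qb and C1qc, chains of complement C1q, were 4.15-fold and 3.75-fold higher, and Itgad, an integrin of red pulp macrophages, 3.53-fold. Vcam1, an adhesion molecule of these cells, had 6964 in Z(+) cells and 2282 in Z(-) cells, 3.05-fold higher. These folds exceed those of Slc40a1 and Spic, 1.46-fold and 1.48-fold, which are themselves genes of red pulp macrophages, while Cd68, a general macrophage marker, was 1.04-fold higher. Their part in the differences of the iron genes was not tested. Erythroid genes, a sign of red blood cells and their precursors, had a median log2 difference of 0.02, and 10 of 10 measured were within 2-fold. Only 4 of them were no dimmer than the median gene, and their median was -0.27. Hbb-b1, which encodes a beta chain of hemoglobin, had 1776 in Z(+) cells and 2776 in Z(-) cells, 1.56-fold lower, and Alas2, the erythroid enzyme of heme synthesis, had 259 in Z(+) cells and 341 in Z(-) cells, 1.31-fold lower. Slc4a1 and Kel, a pair of red cell membrane proteins, were 1.05-fold and 1.11-fold lower.

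**Figure D4:**
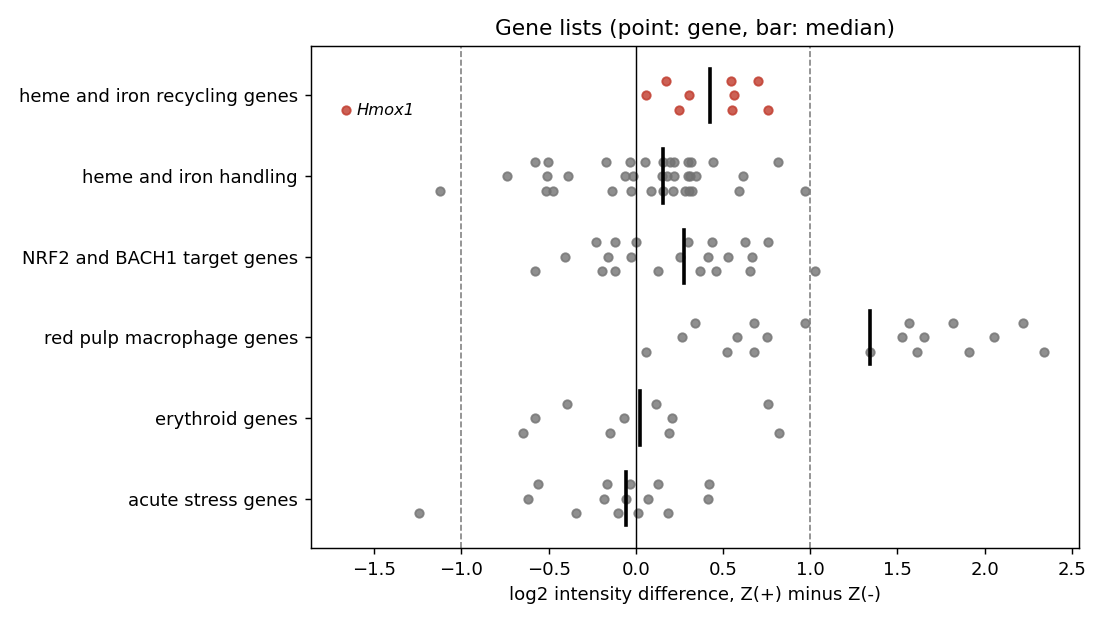
Difference of log2 intensity, Z(+) minus Z(-), for each gene of the 10 recycling genes and of 5 gene lists, with a point per gene, a bar at the median and dashed lines at 2-fold. The red pulp macrophage genes have a median of 1.35, the other lists have medians between -0.06 and 0.27, and Hmox1 lies at -1.66, below every point of the lists.

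Markers of several other cell types were lower in Z(+) together with Hmox1. Of all genes, 6.27% were at least 2-fold lower, but these lists too were chosen with earlier results of these data known. The summed intensity of 9 NK cell genes was 3734 in Z(+) cells and 50805 in Z(-) cells, and 7 of the 9 were at least 2-fold lower. That of 6 basophil and mast cell genes was 1533 in Z(+) cells and 30796 in Z(-) cells, with 5 of 6 at least 2-fold lower, and that of 6 neutrophil genes was 100015 in Z(+) cells and 147664 in Z(-) cells, with 3 of 6 at least 2-fold lower. This last sum is carried by Camp and S100a9, which lie near the limit of the scanner, while Mmp9, Mmp8 and Cxcr2 were 3.68-fold, 3.86-fold and 4.24-fold lower. The part of these cell types in the lower Hmox1 was not tested. The summed intensity of 7 monocyte genes was 99078 in Z(+) cells and 89607 in Z(-) cells, and 7 of 7 were within 2-fold. Of these defining markers 0 were at an intensity of 0, although Ncr1 and S100a8 were dim in both fractions. Of 5 T cell markers, the 3 Cd3 chains were at least 2-fold lower, while Cd4 had 40.1 in Z(+) cells and 36.5 in Z(-) cells and Cd8b1 71.3 and 74.0, and 4 of 4 B cell markers were within 2-fold. Ptprc, the common marker of leukocytes, was 1.35-fold higher, and Hyal2, the receptor of Zfra, had 670 in Z(+) cells and 608 in Z(-) cells.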

How the data were processed

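The authors' deposited table held 1 linear intensity per probe for 1 Z(+) and 1 Z(-) sample, and the titles name 2 technical arrays for each. Amplified RNA carried Cy5 per the labels. Which software, background correction and scaling made the values is not given in the sources used here. Detection calls were not part of the table. The medians were 85.8 in Z(+) and 88.5 in Z(-), and 37 values in each were at or below 0.

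Intensities under 1 were set to 1 and log2 was taken. The platform's annotation named 21876 probes with 1 symbol each and gave none for 4547, and probes of a gene were averaged. By gene ID, 21825 probes matched RefSeq's genes of GRCm38.p6. A call was a difference of at least 2-fold, without a test. The technical arrays were split with factors of 0.968 and 1.03 in Z(+) and 0.990 and 1.01 in Z(-). The split was tested on constructed whole numbers with known answers before it was used. Those had the same small relative noise at every brightness, less than dim probes showed.

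The 10 genes, the lists and the settings were chosen with earlier results of these data known. Named were all 10 genes, of each of the 5 pathway lists the 5 genes with the largest difference among those at or above the median brightness (4 for erythroid cells), and 10 further genes. The lists of other cell types are given by counts and sums. Sums add the gene values of a list. Genes of the lists with no listed probe numbered 1 for heme and iron handling, 3 for NRF2 and BACH1 targets, 4 for erythroid cells and 0 for the other lists of the pathway. Ncr1, S100a8, S100a9, Camp, Mmp8, Mmp9, Cxcr2, Cd4, Cd8b1, Hyal2, Cd68, Axl, Treml4, Csf1r and Sirpa were named after their values were seen. Alternatives were median centring, quantile normalization, loess with a span of 0.3, the brightest probe, a pseudocount of 50, a floor of 16, a filter on dim genes and a 1.5-fold threshold. Python 3.11.15, numpy 2.4.6, pandas 2.3.3, statsmodels 0.14.6 and matplotlib 3.10.9 were used.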

Additional observations from a re-analysis of the deposited data

How the results depend on the processing

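The number of arrays limits the precision, and no paired analysis was possible because each fraction is 1 sample and no result comes from a test. Hmox1 ranged from -1.66 to -1.62. The brightest probe, the floor of 16 and the filter on dim genes could not move it, since it has 1 bright probe, so only the 3 scalings and the pseudocount bear on it. The values of the other 9 genes stayed above 0 under the alternatives run. For these genes too, the brightest probe, the floor of 16 and the filter could not move a value, and the filter left out Ftl1. Values below had moved by more than the technical SD of 0.05, and the cause was not tested. With quantile normalization, the median of the other 9 genes was 0.61, and those of the lists were 0.22 for heme and iron handling, 0.36 for NRF2 and BACH1 targets, 1.42 for red pulp macrophages and -0.00024 for acute stress. With a pseudocount of 50, the median of the other genes was 0.31, Hmox1 minus that median was -1.97, and red pulp macrophages had 1.24. With genes at or above the median brightness alone, which leaves out Ftl1, these values were 0.43, -2.09 and 1.52, and erythroid genes had -0.27. With loess, erythroid genes had -0.027, and with the brightest probe red pulp macrophages had 0.97. At 1.5-fold in place of 2-fold, 2 of the 10 genes were called higher, Slc11a1 and Ftl1, and 1 lower.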
